A study of Homo sapiens with 6 samples.

Results

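The 36 genes described here encode the machinery of RNA polymerase III (Pol III), out of 60671 genes in the expression tables. They are the 4 genes of the initiation factor TFIIIB, 7 genes of the SNAPc complex and its activators, 7 genes of TFIIIA and TFIIIC, 10 subunits found only in Pol III, 7 subunits that Pol III shares with other RNA polymerases, and the repressor MAF1. BRF2 heads the set because its level fell in these libraries, so its own change is a description: where it passed or missed a threshold is stated, but no p-value is given for it and nothing rests on its call. The other 35 genes were taken for their known roles, whatever their values, and all 36 had enough reads to be tested.

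RNA polymerase III makes short untranslated RNAs such as transfer RNAs, 5S ribosomal RNA, U6 and 7SL. TFIIIB places the enzyme at the start site and exists in 2 forms. The form with BRF1 serves promoters that lie inside the gene and are read by TFIIIC, and the form with BRF2 serves promoters that lie upstream, are bound by SNAPc, and drive U6, 7SK, RMRP, RPPH1 and the selenocysteine transfer RNA. BRF2 is also known as a redox-sensing factor, and MAF1 holds Pol III back when growth conditions are poor.

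KGN is a human granulosa cell line, and the cells used here had been edited to carry wild-type FOXL2 on both alleles (FOXL2 WT/WT). Control siRNA and FOXL2 siRNA cells therefore shared this genotype. Cells received 30 pmol of a pool of 3 siRNAs against FOXL2 or the same amount of a scrambled siRNA, with 3 libraries per condition, and RNA was taken after 30 h for stranded, poly(A)-selected sequencing. The FOXL2 pools drew on 4 siRNAs with 1 in common to all pools, so each FOXL2 siRNA library had its own siRNA mixture. The sources do not say that the 3 libraries of a condition came from separate cultures, and p-values measure the spread between these libraries only.

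Total counts lay between 23843192 and 28791954 per library. FOXL2, the targeted gene, was 9.88, 9.71 and 10.8 CPM (normalised read counts per 1e6 reads) with control siRNA and 2.64, 3.31 and 2.36 CPM with FOXL2 siRNA, a log2 fold change of -1.88 (SE 0.142, adjusted p = 0.00267, edgeR). Of 10 granulosa markers, only FOXL2, FOXO1, INHBA and NR5A1 passed the filter on low counts, and FSHR, CYP19A1, AMHR2, INHA, GATA4 and WT1 were at or near 0, so the granulosa label rests on few of its defining genes. FOXL2 siRNA replicate 2 stood apart, with a score of 30.6 on the first principal component (34.8% of the variance) against -13.2 to 1.22 for the other libraries. Each FOXL2 pool lacked a different siRNA, so this library cannot be told apart from its siRNA mixture, and values without it also leave out that mixture. Fold changes of genes given per library that moved by over 1.5 times without it are given both ways. BRF2, POLR3C, RN7SL2, TXNRD1 and SEPHS1 moved less but also have a value given without it. For POLR3C, RN7SL2, TXNRD1 and SEPHS1 the adjusted p was lower there.

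BRF2 fell to 52.8% of its control CPM, and no other gene of the machinery passed the test in either direction. BRF2 stood at 10.2, 9.71 and 11.8 CPM with control siRNA (10.6 ± 1.07, SD, n = 3) and at 5.45, 5.79 and 5.48 CPM with FOXL2 siRNA (5.57 ± 0.185, n = 3). The groups lay well apart, and FOXL2 siRNA replicate 2 was close to the other FOXL2 siRNA libraries for BRF2. The log2 fold change was -0.92 (SE 0.115), and -0.96 without FOXL2 siRNA replicate 2. In RNA from a whole culture, fewer cells with BRF2 RNA and less BRF2 RNA per cell cannot be told apart.

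With edgeR and an adjusted p below 0.05, 1 of the 36 genes (BRF2) was called lower and 0 were called higher. Over the 15663 genes tested, 0.255% were called in either direction and 0.147% were called lower, and since BRF2 was picked for this call the count says nothing more about the machinery. The call was present in 8 of 15 settings and was lost, among others, without any 1 of the control siRNA replicates 1, 2 and 3 or without FOXL2 siRNA replicate 3. Among the other 35 genes, 0 were called, 2 (POLR3C and GTF3C4) had an unadjusted p below 0.05, and the smallest adjusted p was 0.168. By the same edgeR test, 2114 of the 15663 genes had an unadjusted p below 0.05. None of the other 35 was called by DESeq2 or limma-voom either, where 348 of 30758 and 39 of 15663 genes tested were called. Their log2 fold changes ran from -0.26 (POLR3C) to 0.29 (POLR3G) with a median of -0.01, beside a median of 0.01 for all genes tested, and 18 of them were below 0 and 17 above.

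**Figure D1:**
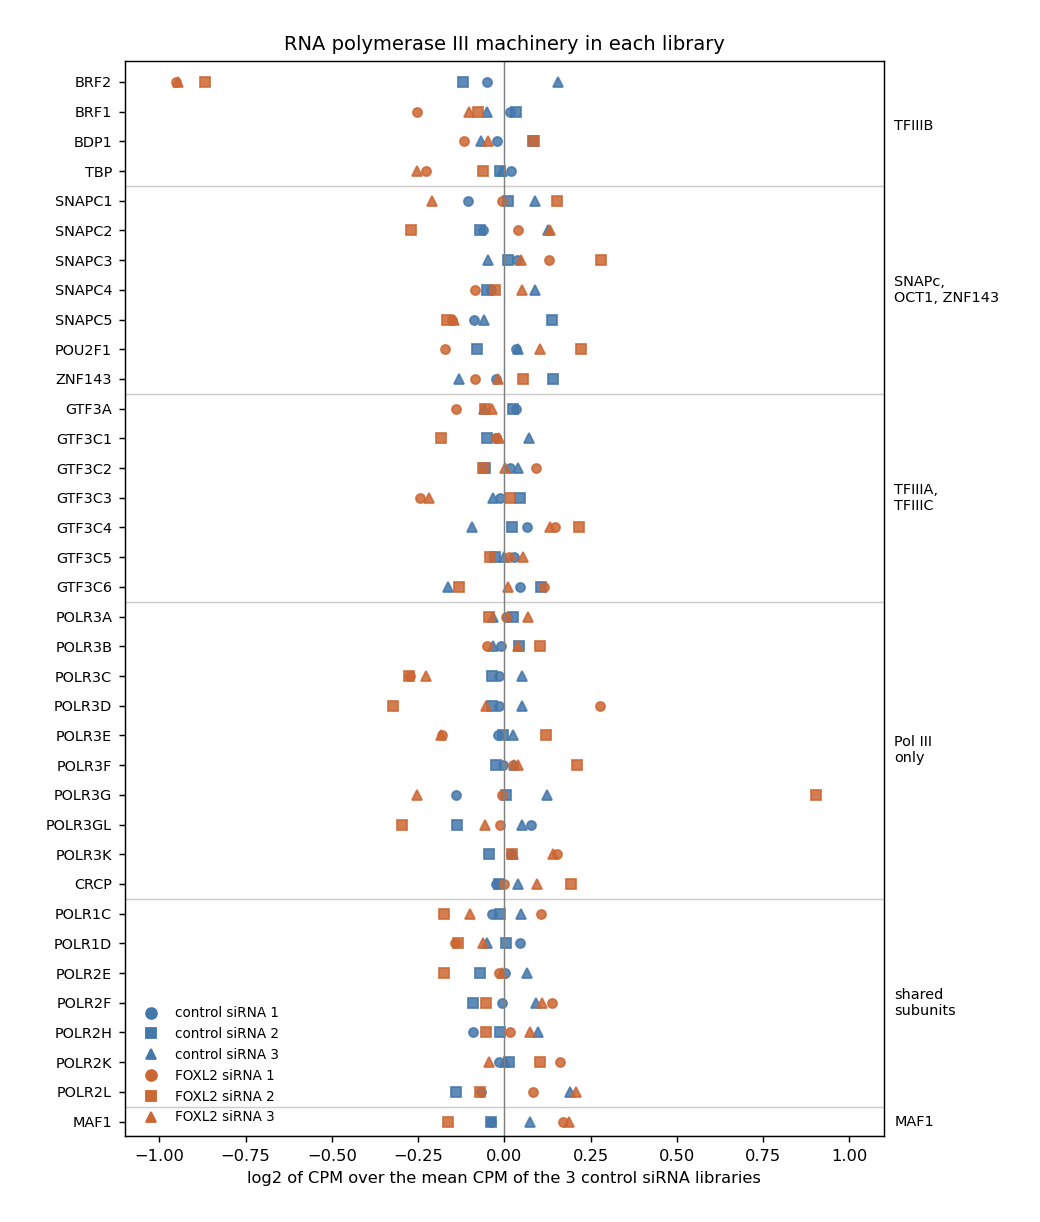
CPM of the 36 genes in each of the 6 libraries, as the log2 ratio to the mean of the 3 control siRNA libraries, grouped by complex (blue, control siRNA; orange, FOXL2 siRNA; circle, square and triangle, replicates 1, 2 and 3). The 3 FOXL2 siRNA points of BRF2 sit together near -0.92, far left of all others, and the isolated point on the right is POLR3G in FOXL2 siRNA replicate 2.

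For 8 of the 36 genes (22.2%) the CPM values of the 2 conditions did not overlap, a share close to the 20.5% of all genes tested. Apart from BRF2 these were BRF1, TBP, SNAPC5, POLR3C and POLR1D on the lower side and SNAPC3 and GTF3C4 on the higher side, that is 7 of the other 35 (20%). FOXL2 siRNA replicate 2 was the highest or the lowest of the 6 libraries for 22 of the 36 genes (61.1%), compared with 49.6% of all genes tested. The plot by library shows that it lay on either side of the others.

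The other TFIIIB genes were not called, and their values were much closer to the controls than those of BRF2. BRF1, the paralog of BRF2 that serves internal promoters, was 30.7, 31.1 and 29.3 CPM with control siRNA and 25.5, 28.8 and 28.3 CPM with FOXL2 siRNA. The groups did not overlap, but the log2 fold change of -0.14 (SE 0.0768) did not pass the test (adjusted p = 0.451). On a scale that divides by transcript length the groups overlapped, and with effective lengths as offsets in edgeR the log2 fold change of BRF1 was -0.05. TBP, the TATA-binding protein that all nuclear polymerases use, was 16.4, 16.0 and 16.1 CPM against 13.8, 15.5 and 13.6 CPM. Its groups did not overlap either, with a log2 fold change of -0.18 (SE 0.0874, adjusted p = 0.401). BDP1, which is part of both TFIIIB forms, was 59.3, 63.7 and 57.5 CPM against 55.4, 63.8 and 58.3 CPM, groups that overlapped (log2 fold change -0.02, SE 0.0757, adjusted p = 0.921), and was -0.09 (adjusted p = 0.564) without FOXL2 siRNA replicate 2. The median of these 3 was -0.14.

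Levels of different genes can be compared only per transcript length, as TPM (transcripts per 1e6 transcripts). On that scale BRF2 made up 29.8%, 25.3% and 32.6% of the sum of BRF1 and BRF2 with control siRNA and 20.9%, 18.1% and 21.4% with FOXL2 siRNA. The BRF1 form was thus the more abundant RNA in all 6 libraries, and the BRF2 share was lower in each FOXL2 siRNA library than in any control siRNA library. This share contains the value for which BRF2 was chosen and is a description. GTF2B and TAF1B, which encode the related factors of RNA polymerases II and I, had log2 fold changes of 0.08 (SE 0.0893, adjusted p = 0.740) and 0.08 (SE 0.0936, adjusted p = 0.744).

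SNAPc is the complex that recognises the upstream element of BRF2-dependent promoters, and OCT1 (POU2F1) and ZNF143 activate those promoters. None of these 7 genes was called, and their median log2 fold change was -0.02. SNAPC5, a small subunit of the complex, had the lowest value. It was 11.2, 13.1 and 11.4 CPM with control siRNA and 10.7, 10.6 and 10.7 CPM with FOXL2 siRNA (log2 fold change -0.15, SE 0.0977, adjusted p = 0.526). SNAPC3, which takes part in DNA binding, had the highest value, with 40.6, 39.9 and 38.3 CPM against 43.3, 48.1 and 40.9 CPM (log2 fold change 0.15, SE 0.0776, adjusted p = 0.415, and 0.08 without FOXL2 siRNA replicate 2, adjusted p = 0.568). The 2 conditions did not overlap for either gene. SNAPC1, SNAPC2, SNAPC4, POU2F1 and ZNF143 lay between -0.02 and 0.06, with overlapping groups.

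TFIIIC reads the internal promoters of transfer RNA genes, and TFIIIA (GTF3A) brings it to the 5S ribosomal RNA genes. None of these 7 genes was called, and their median log2 fold change was 0.00. GTF3C4, a TFIIIC subunit, was 66.6, 64.7 and 59.7 CPM with control siRNA and 70.5, 74.0 and 69.8 CPM with FOXL2 siRNA. All FOXL2 siRNA libraries lay above all control libraries, and the log2 fold change of 0.17 (SE 0.0670) had an unadjusted p of 0.0351 and an adjusted p of 0.334 in edgeR. GTF3C3, another subunit, was 40.2, 41.8 and 39.6 CPM against 34.2, 41.0 and 34.8 CPM. FOXL2 siRNA replicate 2 sat within the control range and the other FOXL2 siRNA libraries below it (log2 fold change -0.15, SE 0.0844, adjusted p = 0.483). Without that library it was -0.24 (SE 0.0644, adjusted p = 0.0870), whereas per length with all libraries GTF3C3 was 22.7 ± 0.784 TPM against 22.8 ± 1.91 TPM. GTF3C1, GTF3C2, GTF3C5, GTF3C6 and GTF3A lay between -0.08 and 0.01.

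FOXL2 is a forkhead factor, and the study asked whether it also binds RNA rich in G doublets, so both kinds of sequence were looked up in the members. The forkhead word TAAACA, on either strand, was sought in the promoters given by RefSeq for 29 of the 36 genes (250 bases before to 50 after the start, GRCh38.p14). It was found in 1 of them, GTF3C2, whereas 12.4% of 27305 such promoters hold it. The rest of the 36 genes were not searched, and nothing is read from this for the BRF2 promoter. The GTF3C2 match starts 99 bases before the RefSeq start site. In GENCODE v29 the gene begins further upstream, at base 27357034, so the match lies inside the gene there. The word is in capitals as TGTTTA on the printed strand, which is the strand of the gene (chr2:27356838-27356883, minus strand):
GTF3C2: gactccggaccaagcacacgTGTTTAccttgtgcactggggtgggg

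A run of 8 GG doublets with gaps of 1 to 4 bases occurred in the longest GENCODE v29 transcript of 6 of the 36 genes (16.7%), namely BRF1, SNAPC3, GTF3C4, GTF3C5, POLR3E and MAF1, beside 19.3% of 15530 tested genes. For BRF1 and POLR3E this longest transcript has no coding sequence, so the run is not shown for their coding transcripts. The longest transcript of BRF2 held none. The study's own consensus is narrower, with a fixed A in some gaps and shorter limits for most gaps. A run found here need not fit it, and neither printed run does with its doublets as marked. The runs printed here, on GRCh38, lie in the TFIIIC subunit with the highest fold change of its group and in a subunit near 0. The GTF3C4 run lies in an untranslated part of exon 1 (chr9:132670508-132670534, plus strand) and the GTF3C5 run in coding sequence of exon 11 (chr9:133057884-133057912, plus strand), with the doublets in capitals:
GTF3C4: GGagGGcgctGGgGGtGGcGGcGGcGG
GTF3C5: GGaGGatgaGGaGGaGGaGGaagaGGaGG
A match is only a description of these letters.

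Of the 10 subunits found only in Pol III, none was called, and their median log2 fold change was 0.02. POLR3C, part of the trimer that opens the promoter, was the member nearest to a call after BRF2, with 32.3, 31.8 and 33.8 CPM with control siRNA and 27.0, 26.9 and 27.9 CPM with FOXL2 siRNA. The groups were tight and apart, at 32.6 ± 1.01 and 27.3 ± 0.518 CPM. The log2 fold change was -0.26 (SE 0.0680), with an unadjusted p of 0.00412 and an adjusted p of 0.168, and over the 14 alternatives it ran from -0.30 to -0.24 with a lowest adjusted p of 0.0814 (without FOXL2 siRNA replicate 2). Its partners in the trimer are POLR3F and either POLR3G or POLR3GL, none of which was called. POLR3F was 10.8, 10.7 and 11 CPM against 11, 12.5 and 11.1 CPM (log2 fold change 0.09, SE 0.0946, adjusted p = 0.711, and 0.03 without FOXL2 siRNA replicate 2).

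POLR3G and POLR3GL encode alternative versions of 1 subunit, POLR3G being the form known from stem cells and tumours. POLR3G had the highest fold change of all members and the largest spread. It was 9.61, 10.6 and 11.5 CPM with control siRNA and 10.5, 19.8 and 8.88 CPM with FOXL2 siRNA. The value in FOXL2 siRNA replicate 2 stood alone, and without that library the log2 fold change turned from 0.29 (SE 0.265, adjusted p = 0.667) to -0.13 (SE 0.121, adjusted p = 0.639).

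The effective length that RSEM estimated for POLR3G, which moves with the mix of its transcripts, was 2039 bases in that library and 1105 to 1350 bases in the other 5. Per length, POLR3G was 12.3, 11.7 and 15.2 TPM against 13.8, 15.3 and 11.3 TPM, and the library no longer stood out. POLR3GL was 22.6, 19.5 and 22.2 CPM against 21.2, 17.4 and 20.6 CPM (log2 fold change -0.12, SE 0.102, adjusted p = 0.654, and -0.04 without FOXL2 siRNA replicate 2). POLR3G made up 29.1% ± 2.49 of the sum of both by TPM with control siRNA and 31.0% ± 4.47 with FOXL2 siRNA (n = 3 each, two-sided exact permutation p = 0.7, smallest possible 0.1). By counts the share in FOXL2 siRNA replicate 2 was 53.2%, and by TPM it was 35.6%.

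The catalytic pair POLR3A and POLR3B had log2 fold changes of 0.01 (SE 0.0623) and 0.03 (SE 0.0722), and POLR3D, POLR3E, POLR3K and CRCP lay between -0.08 and 0.11. POLR3D was the most uneven of these, with 56.7, 55.8 and 59.3 CPM in control siRNA and 69.4, 45.8 and 55.1 CPM in FOXL2 siRNA libraries. Its FOXL2 siRNA libraries spread to both sides of the controls, and its log2 fold change turned from -0.01 to 0.12 (SE 0.0930, adjusted p = 0.581) without FOXL2 siRNA replicate 2. POLR3E went from -0.08 to -0.19 (SE 0.0645, adjusted p = 0.174) without that library.

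The 7 shared subunits had a median log2 fold change of 0.01, none was called, and their values stayed between -0.11 and 0.08. The lowest was POLR1D, shared with RNA polymerase I, with 47.5, 46.2 and 44.5 CPM against 41.7, 42.0 and 44.1 CPM (log2 fold change -0.11, SE 0.0651, adjusted p = 0.484), groups that did not overlap by a small margin. The highest was POLR2L, shared by all 3 nuclear polymerases, with 147, 140 and 176 CPM against 163, 147 and 178 CPM, overlapping groups (0.08, SE 0.10, adjusted p = 0.775, and 0.14 without FOXL2 siRNA replicate 2, adjusted p = 0.473). MAF1 was 80.9, 80.9 and 87.3 CPM with control siRNA and 93.5, 74.1 and 94.6 CPM with FOXL2 siRNA. FOXL2 siRNA replicate 2 was the lowest of the 6 and the other FOXL2 siRNA libraries the highest (log2 fold change 0.07, SE 0.0961, adjusted p = 0.775), and without it MAF1 was 0.17 (SE 0.0586, adjusted p = 0.160).

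**Figure D2:**
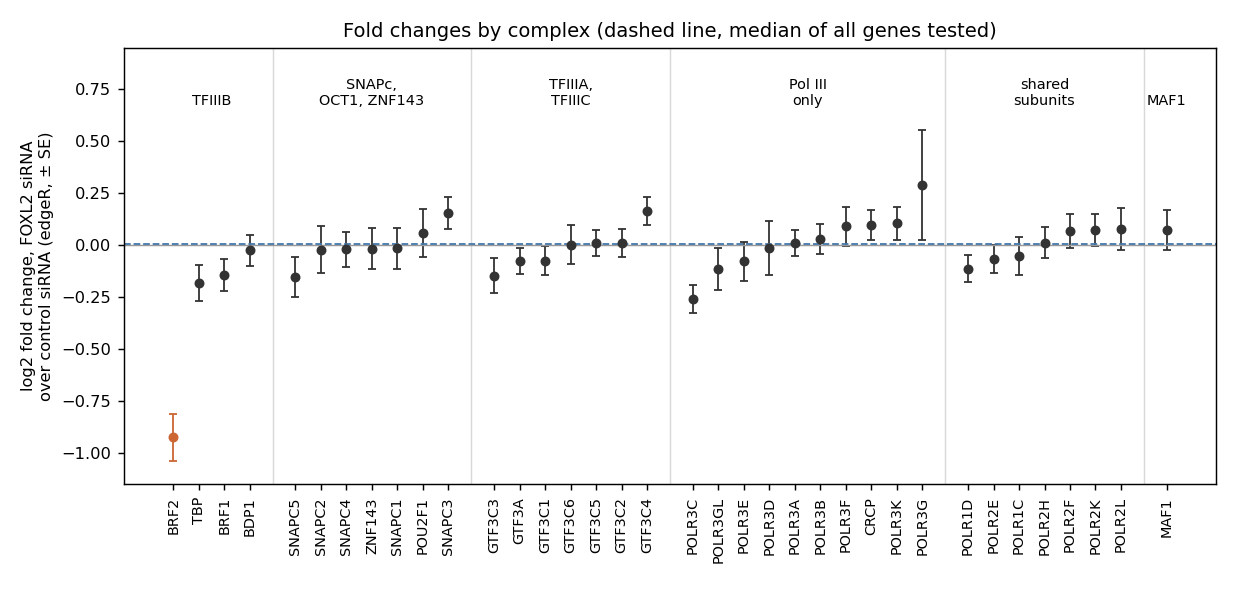
log2 fold change of each gene (FOXL2 siRNA over control siRNA, edgeR, 3 libraries each) with its standard error, ordered within each complex. BRF2 at -0.92 is separate from the other 35, which lie between -0.26 and 0.29 around the median of all genes tested (dashed line), and the long bar belongs to POLR3G.

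In control siRNA cells the machinery spanned a wide range of levels. Shared subunits were the most abundant, with POLR2L at 402 ± 51.5, POLR2E at 286 ± 13.2 and POLR2F at 122 ± 7.87 TPM (SD, n = 3), each clear of the next. GTF3C6, GTF3A and MAF1 followed at 92.6 ± 10.4, 89.7 ± 5.46 and 87.8 ± 3.08 TPM and did not differ beyond their spread. From POLR1D (73.2 ± 4.14 TPM) down to POLR3B (12.1 ± 0.180 TPM) most neighbours in the order overlapped.

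BRF2 was near the bottom of this order, at 6.65 ± 0.547 TPM and rank 34 of 36. It could not be separated from SNAPC4, the largest SNAPc subunit (6.47 ± 0.332 TPM), and only POU2F1 at 1.86 ± 0.125 TPM was clearly below both. Within TFIIIB, TBP (17.9 ± 0.481 TPM) and BRF1 (16.2 ± 1.57 TPM) overlapped, BDP1 was lower (10.4 ± 1.05 TPM), and BRF2 was the lowest of the 4. With FOXL2 siRNA, BRF2 was 4.01 ± 0.192 and SNAPC4 6.40 ± 0.675 TPM. BRF2 TPM amounted to 111%, 92.2% and 106% of SNAPC4 TPM with control siRNA and to 66.9%, 59.5% and 62.2% with FOXL2 siRNA.

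The effective length of BRF2 enters its TPM, so like the fold change it is a description. It was 2248, 2386 and 2391 bases with control siRNA (2342 ± 81.5) and 2099, 2181 and 2014 bases with FOXL2 siRNA (2098 ± 83.6), or 89.6% of the control mean. The groups did not overlap. The underlying RSEM transcript length was exactly 2560 bases in control siRNA replicates 2 and 3, 2420 in control siRNA replicate 1, and 2268, 2353 and 2177 bases in the FOXL2 siRNA libraries.

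GENCODE v29 lists 4 BRF2 transcripts, of 2603, 1192 and 550 bases (protein coding) and 473 bases (nonsense-mediated decay). RSEM's gene length is the mean of its transcripts' lengths weighted by abundance, so a lower value means that shorter transcripts were given a larger part. None of these is 2560 bases, the exact RSEM length in control siRNA replicates 2 and 3. The v29 lengths therefore appear not to be those of the authors' release. In v29 BRF2 overlaps ADGRA2 on the opposite strand by 1629 bases. ADGRA2 had a higher CPM than BRF2 and a log2 fold change of -0.08 (SE 0.138, adjusted p = 0.848). The strand setting of the counting is not given in the sources used here, so reads of the pair may not be fully told apart.

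TPM divides by this length, and the fall of BRF2 was smaller per length. BRF2 was 6.75, 6.06 and 7.14 TPM with control siRNA and 3.80, 4.18 and 4.04 TPM with FOXL2 siRNA, or 60.3% of control by TPM and 52.8% by CPM. The groups did not overlap on either scale. When effective lengths entered as offsets, BRF2 had a log2 fold change of -0.76 (SE 0.134) in edgeR, where BRF2 no longer passed the threshold, and -0.74 (SE 0.175) in DESeq2, where it did.

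An effective length with separated groups and means at least 10% apart was found for 2 of the 36 genes (5.56%), BRF2 and POLR3D, compared with 4.25% of all genes with a length. BRF2 did not meet this limit by RSEM's transcript length, whose means of 2513 and 2266 bases were less than 10% apart. POLR3D had the opposite direction, 112% of control. TBP, POLR3B and CRCP joined when means only 5% apart were counted, all longer with FOXL2 siRNA. The share of all genes at 5% is not given, so nothing is read from that count. Overlaps on the opposite strand as for BRF2 were found for 18 of the 36 genes, and in 7 of these an overlapping gene had the higher CPM, among them BRF1, SNAPC3 and SNAPC5.

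Most RNAs that Pol III makes are known to carry no poly(A) tail, these libraries were poly(A)-selected, and several of the RNAs were too short for RSEM to give them an effective length. Coverage ranged from 0 to 4764 counts. Of 12 RNAs from upstream, BRF2-type promoters, 3 passed the filter. The U6 genes RNU6-1, RNU6-2, RNU6-7, RNU6-8 and RNU6-9 were listed at 0 in all libraries, with an effective length of at most 1.28 of 107 bases, so that 0 is no measurement of U6. RN7SK, the RNA that holds back the elongation factor P-TEFb, had 158, 67 and 58 counts with control siRNA and 116, 313 and 109 with FOXL2 siRNA. RPPH1, the RNA of RNase P, had 64, 23 and 14 counts against 55, 285 and 62. FOXL2 siRNA replicate 2 was the highest library for both and the groups overlapped.

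RN7SK had a log2 fold change of 0.88 (SE 0.533, adjusted p = 0.504) and RPPH1 of 1.95 (SE 0.815, adjusted p = 0.345), and without FOXL2 siRNA replicate 2 they were 0.11 (SE 0.371, adjusted p = 0.920) and 0.65 (SE 0.467, adjusted p = 0.529). RMRP, the RNA of RNase MRP, is listed under 2 gene identifiers between which its reads moved. The first had 23, 26 and 23 counts with control siRNA and 0 in all FOXL2 siRNA libraries, and was called lower. The second had 39, 0 and 0 counts against 49, 144 and 30. Their sum was 62, 26 and 23 counts with control siRNA and 49, 144 and 30 with FOXL2 siRNA, groups that overlapped, so the call belongs to the identifier and not to RMRP as a whole.

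Among 7 RNAs from internal promoters, 4 passed the filter. RN7SL1 and RN7SL2, near-identical copies of the 7SL RNA of the signal recognition particle that may share reads, had more reads in every FOXL2 siRNA library than in any control siRNA library. RN7SL1 had 61.7, 35.6 and 55.3 CPM with control siRNA and 88.0, 197 and 86.4 CPM with FOXL2 siRNA (log2 fold change 1.28, SE 0.323, adjusted p = 0.160). RN7SL2 had 72.6, 41.2 and 67.9 CPM against 111, 189 and 112 CPM (1.18, SE 0.248, adjusted p = 0.108). Neither passed the test with all libraries, and without FOXL2 siRNA replicate 2 the fold changes were smaller but both passed, at 0.77 (SE 0.173, adjusted p = 0.0440) and 0.87 (SE 0.181, adjusted p = 0.0346). In that fit 579 of 16025 genes tested were called, against 40 of 15663 with all libraries. RN7SL3 had 1.87, 0.612 and 0.821 CPM against 1.57, 3.10 and 1.49 CPM, groups that overlapped (0.87, SE 0.430, adjusted p = 0.410, and 0.47 without FOXL2 siRNA replicate 2). BCYRN1, a neuronal RNA, had 87.2, 92.4 and 113 CPM against 96.1, 96.4 and 112 CPM, also overlapping (0.06, SE 0.105, adjusted p = 0.841, and 0.09 without FOXL2 siRNA replicate 2). The part that poly(A) selection has in these values was not tested.

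**Figure D3:**
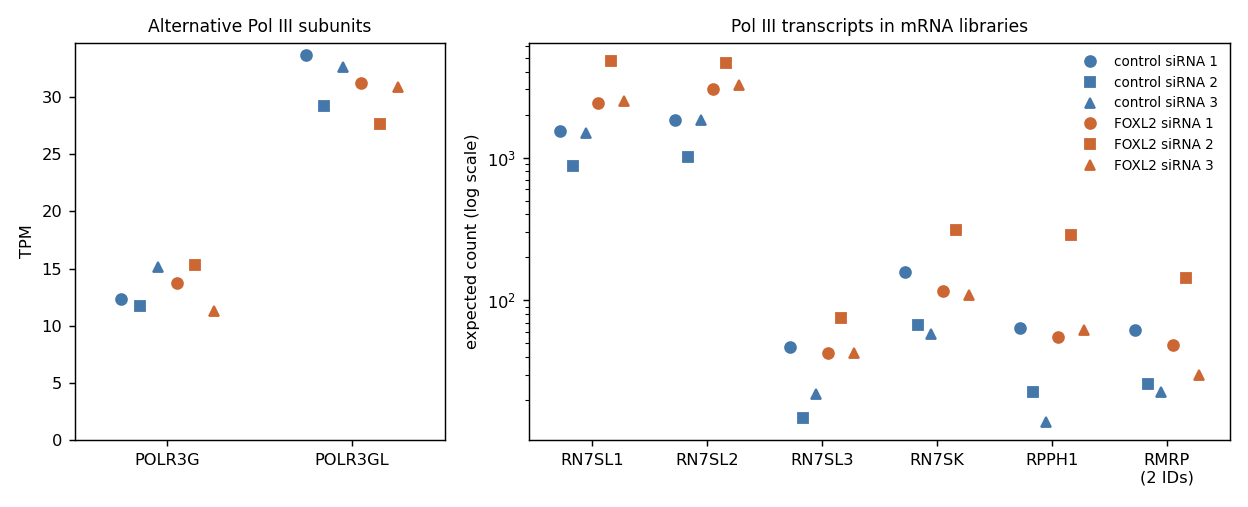
Left, TPM of POLR3G and POLR3GL in each library. Right, expected counts of Pol III transcripts on a log axis (blue, control siRNA; orange, FOXL2 siRNA; circle, square and triangle, replicates 1, 2 and 3). FOXL2 siRNA replicate 2 (orange square) is the highest point for all 6 RNAs shown, from RN7SL1 at 4764 counts to RN7SL3 at 75.

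Genes that work beside Pol III were compared in lists not picked for how they moved, and none of the genes below was called with all 6 libraries. The 28 proteins that bind or mature Pol III RNAs had a median log2 fold change of 0.00. Of these, 4 had an unadjusted p below 0.05, beside 2114 of the 15663 genes tested. They ran from RPP25, an RNase P protein with only 8 to 13 counts per library (-0.29, SE 0.334, adjusted p = 0.739), to SRP9, a protein that binds 7SL (0.42, SE 0.20, adjusted p = 0.398). SRP9 was 129, 126 and 109 CPM with control siRNA and 137, 226 and 123 CPM with FOXL2 siRNA, and its value rested on replicate 2, without which it was 0.10 (SE 0.0832, adjusted p = 0.619).

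The 7 subunits particular to RNA polymerase II had a median of 0.00, from POLR2C at -0.07 (SE 0.0613, adjusted p = 0.636) to POLR2D at 0.21 (SE 0.0570, adjusted p = 0.175). The 6 subunits particular to RNA polymerase I had a median of 0.04, from POLR1A at -0.08 (SE 0.0602, adjusted p = 0.591) to POLR1F at 0.50 (SE 0.128, adjusted p = 0.160). POLR1F was 40.0, 41.0 and 37.4 CPM with control siRNA and 52.6, 68.3 and 46.9 CPM with FOXL2 siRNA, without overlap. Without FOXL2 siRNA replicate 2 its log2 fold change was 0.33 (SE 0.0757, adjusted p = 0.0488), in a fit that called 579 of 16025 genes tested.

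The selenocysteine transfer RNA is made from a BRF2-type promoter, which is why selenoproteins were listed. Of 25 selenoprotein genes 19 were tested, with a median of -0.03 and 3 at an unadjusted p below 0.05, beside 2114 of the 15663 genes tested. GPX3, a secreted glutathione peroxidase, was lowest with 16.3, 15.4 and 12.7 CPM with control siRNA and 9.70, 10.0 and 13 CPM with FOXL2 siRNA, overlapping groups (-0.43, SE 0.141, adjusted p = 0.248). The smallest p was that of TXNRD1, a cytosolic thioredoxin reductase, with 651, 682 and 723 CPM with control siRNA and 581, 577 and 537 CPM with FOXL2 siRNA. All FOXL2 siRNA libraries were below all control siRNA libraries (-0.28, SE 0.0636, adjusted p = 0.119), and without FOXL2 siRNA replicate 2 TXNRD1 passed the test (-0.30, SE 0.0611, adjusted p = 0.0335). That fit called 579 of 16025 genes tested. DIO2, a deiodinase, was highest at 4 to 14 counts per library (0.53, SE 0.420, adjusted p = 0.620). The 6 genes of selenocysteine synthesis and insertion had a median of -0.10, from PSTK (-0.28, SE 0.172, adjusted p = 0.509) to SEPSECS (0.14, SE 0.153, adjusted p = 0.729), and 1 had an unadjusted p below 0.05. That was SEPHS1, a selenophosphate synthetase paralog, with 96.2, 92.7 and 88.7 CPM against 77.9, 76.2 and 78.6 CPM, groups that did not overlap (-0.25, SE 0.0601, adjusted p = 0.128, and 0.0572 without FOXL2 siRNA replicate 2).

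Of the 5 protein-coding genes on each side of BRF2, 8 were tested, with a median log2 fold change of -0.07. They ran from RAB11FIP1, a regulator of endosome recycling, to EIF4EBP1, a repressor of translation initiation (0.02, SE 0.0849, adjusted p = 0.930). RAB11FIP1 was 13, 14.4 and 13.4 CPM with control siRNA and 4.36, 16.4 and 5.79 CPM with FOXL2 siRNA. It was low with FOXL2 siRNA replicates 1 and 3 and highest in replicate 2, so the groups overlapped (-0.65, SE 0.390, adjusted p = 0.502), and without replicate 2 the log2 fold change was -1.42 (SE 0.131, adjusted p = 0.00127). The fit without replicate 2 called 579 of 16025 genes tested. BRF2 was low in all 3 FOXL2 siRNA libraries.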

How the data were processed

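RNA-seq was done on 6 libraries of KGN cells, 3 with FOXL2 siRNA and 3 with control siRNA, grouped by the treatment label. The authors aligned single reads with STAR 2.7.6a, checked them with Picard 2.8.1 and estimated expression with RSEM 1.3.1. The submitters' processing notes name a mouse genome build although all identifiers are human Ensembl genes, so the human build and its annotation are not stated in the sources used here. The deposited tables hold expected counts, which are not normalized, with TPM and FPKM values scaled by the authors' RSEM run and each gene's length and effective length. FPKM values were not used.

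Expected counts were rounded. Genes kept by filterByExpr (15663, holding at least 99.9% of the counts) were normalized by TMM and tested with the quasi-likelihood test of edgeR 4.0.16 in R 4.3.3, with Benjamini-Hochberg adjustment over all genes tested and a threshold of 0.05. The scripts were tested on simulated data. CPM values are TMM-normalized, and errors are SDs of 3 libraries unless named SE. For edgeR the SE is approximate. It was derived from the test, as the absolute log2 fold change divided by the square root of the F statistic. The POLR3G share was compared with an exact permutation test.

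Alternatives were DESeq2 1.42.0, limma-voom, limma 3.58.1 on log2(TPM + 1) with a mean TPM of at least 1, size factors, no filter, effective lengths as offsets, a replicate block and each library left out. Control siRNA levels, separated groups, shares and lengths were also recomputed with other units or columns. Sequences came from RefSeq promoters (GRCh38.p14) and GENCODE v29 transcripts (GRCh38), which may differ from the authors' release. Genes chosen for printing were FOXL2, BRF2, the other TFIIIB genes, MAF1, POLR3G, POLR3GL and the lowest and highest fold change of each complex and list. Several of the lists' lowest and highest genes are given by fold change only. Any other gene given per library was added after its values were seen. The members and lists were chosen with earlier results of these data known.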

Additional observations from a re-analysis of the deposited data

How the results depend on the processing

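With 3 libraries per condition, 0 of the other 35 genes were called under any of the 15 settings. In the main fit 2 of them had an unadjusted p below 0.05, as did 2114 of the 15663 genes tested. Over all settings this count was 1 to 6. The 6 came without FOXL2 siRNA replicate 2, in a fit that called 579 of 16025 genes tested. The share of all genes at this unadjusted p is not given for the alternatives, so nothing is read from that range. Of the 35, 17 changed sign in at least 1 alternative, so directions of small changes are not resolved. BRF2 stayed below 0 throughout and passed the threshold in 8 of 15 settings. The count of members called was 0 instead of 1 with limma on log2(TPM + 1), with edgeR and effective lengths as offsets, and with the replicate block, and ranged from 0 to 1 with 1 library left out: BRF2 was not called without control siRNA replicate 1, 2 or 3 or without FOXL2 siRNA replicate 3. Its log2 fold change was -0.61 with limma on log2(TPM + 1), -0.76 and -0.74 with effective lengths as offsets in edgeR and DESeq2, and -0.98 to -0.84 with 1 library left out.

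Over all genes, 40 calls became 348 with DESeq2, 344 with DESeq2 and offsets, 13 with limma on log2(TPM + 1), 70 without the filter and 11 with the block. With 1 library left out there were 2 to 579 calls. The 579 came without FOXL2 siRNA replicate 2, out of 16025 genes tested, and the 40 of the main fit out of 15663. The TFIIIB median without BRF2 was -0.040 with limma on log2(TPM + 1) and -0.055 with DESeq2 and offsets, and the shared subunit median was 0.092 with limma on log2(TPM + 1). The TFIIIA and TFIIIC median ranged from -0.047 (without FOXL2 siRNA replicate 1) to 0.030 (without FOXL2 siRNA replicate 2) with 1 library left out. Shifted lengths were found for 1 gene with RSEM's length, where BRF2 dropped out, and for 5 with means 5% apart, without a share over all genes beside them. The causes were not tested.

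Samples with the same replicate number correlated at -0.05, 0.05 and 0.07 in their deviations from the group means. Those with different numbers correlated at -0.14 to 0.11, so no pairing by number was visible. The sample titles number the pools alike in both conditions, and with 3 libraries per condition this check cannot exclude pairing. With the replicate block BRF2 was -0.92 and not called, and calls over all genes fell from 40 to 11.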
